A study of Mus musculus with 26 samples.

Results

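The mRNAs described here are those whose recovery with an antibody to IMP2 was compared between brown fat of wild-type mice and brown fat of mice that lack IMP2. For each gene the recovery, the immunoprecipitate over total RNA on a log2 scale, was taken in each genotype, and the recovery in the knockout was subtracted from the recovery in the wild type. A positive difference means that relatively more of an mRNA came down with the antibody where IMP2 was present. All genes with a listed transcript were included, with the transcript of the highest summed count standing for each gene, which gave 1189 genes out of 9378 named in the series. They were measured in 8 of its 26 samples: wild-type total RNA (libraries 16 and 17), wild-type IMP2 immunoprecipitates (21 and 22), Imp2-/- total RNA (18 and 19) and Imp2-/- IMP2 immunoprecipitates (23 and 24). All came from male mice aged 10 weeks on a C57Bl/6J background, littermates from crosses of heterozygotes, which ate normal chow and spent a night at 4 °C before the tissue was taken. The Imp2-/- animals lack the gene in every tissue, and nothing in the labels shows that libraries of 1 group are from separate animals. P-values therefore measure the spread between these libraries, which may be technical.

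IMP2, the product of Igf2bp2, belongs to a family of RNA-binding proteins that bind mRNAs in the cytoplasm and influence their location, stability and translation. RNA immunoprecipitation pulls such a protein out of a tissue extract with an antibody and sequences the RNA that comes along. RNA also sticks to beads and antibodies without the protein, and tissue without the protein shows how much. Brown fat makes heat by running the respiratory chain while the uncoupling protein Ucp1 lets protons back into the mitochondrial matrix. Most proteins of the respiratory chain are encoded in the nucleus, made on cytosolic ribosomes and imported, so that their mRNAs are open to control by cytoplasmic RNA-binding proteins.

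The summed counts over the listed genes ran from 780333 to 4916160 per library and were lowest in the wild-type immunoprecipitates. In wild-type libraries no gene was listed with 100 counts or fewer, whereas the lowest count in knockout immunoprecipitate 23 was 39. Counting error is therefore not negligible for the least abundant genes. Levels are given as counts scaled to a common library size (CPM), which compare libraries and not genes. Igf2bp2 has no row among these genes, so its mRNA gives no check of the genotypes. Of 12 brown fat markers 8 were listed, Ucp1 among them, with summed levels of 27900 to 36450 CPM in the 8 libraries. Skeletal muscle markers differed between libraries. The 9 listed of 22 summed to 3221 and 11190 CPM in wild-type total RNA, 1059 and 2978 in knockout total RNA, 2015 and 7827 in wild-type immunoprecipitates, and 834.8 and 1863 in knockout immunoprecipitates. They were thus higher in the wild-type group of each kind of RNA, and fewer muscle cells cannot be told apart from less RNA per cell in such pieces of tissue. Of the other cell types looked for, macrophages and leukocytes had 0 of 14 markers listed, red cells 3 of 7, and endothelium, fibroblasts, smooth muscle and white fat 1 each. In the recovery difference, in which total RNA is divided out, the 9 muscle genes had a median of log2 0.25. Standard errors of single muscle genes reached log2 1.64. Signs under the 20 alternative settings were followed only for Atp2a1, Des, Tcap and Tnni2, and each of these changed sign in 1 to 4 settings. The 3 red cell genes were all above 0, with a median of log2 0.38, and 2 of them, Hba-a1 and Hba-a2, have identical counts. Their summed levels were 5038 and 4300 CPM in wild-type and 4845 and 3625 in knockout total RNA, and 2669 and 2734 in wild-type and 2408 and 1618 in knockout immunoprecipitates. The part of either cell type in the values of other genes was not tested.

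No gene passed the threshold for the recovery difference. By edgeR's quasi-likelihood test 0 genes were higher and 0 lower at an adjusted p under 0.05 (0.0% of 1189 in each direction), and the smallest adjusted p was 0.999. At an unadjusted p under 0.05 there were 29 genes with positive values (2.44%) and 0 with negative values (0.0%). Such a threshold passes a share of about 0.05 of genes where nothing differs, so the 29 are not an excess over that share. Leaving out 1 library gave between 7 (without knockout total RNA 18) and 52 positive genes (without wild-type immunoprecipitate 21). When each immunoprecipitate was matched to a total RNA library by deviations they shared, a match chosen after seeing the data that the labels do not give, 125 genes (10.5%) were positive and 11 (0.925%) negative at an unadjusted p under 0.05, and 0 passed the threshold. DESeq2 and limma-voom also called 0 genes in either direction, with 42 and 29 genes at an unadjusted p under 0.05. Values lay between log2 -0.30 and 0.81, with a median of log2 0.00, and 592 genes (49.8%) were above 0. The scaling was computed on these same genes, so a median near 0 follows largely from it. With scaling by summed counts alone the median was log2 -0.07, so counts above or below 0 depend on the scaling. The plot of both genotypes' ratios shows the same mRNAs at the top and at the bottom of the scale in each genotype.

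**Figure D1:**
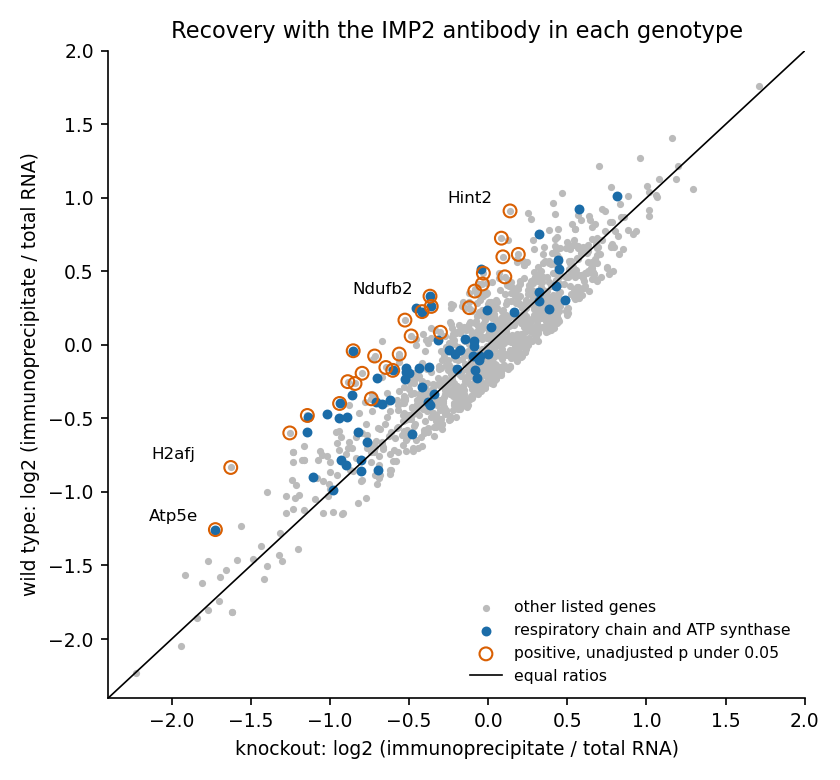
Each point is a gene, with log2 of immunoprecipitate over total RNA in the knockout on the x axis and in the wild type on the y axis (n = 2 libraries per group); the line marks equal ratios. Circled points are the 29 genes with a positive difference at an unadjusted p under 0.05, all above the line, and no point lies more than log2 0.30 below it.

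The distribution of the difference had a long upper side and a sharp lower end. A total of 138 genes were above log2 0.3, whereas 69 were below log2 -0.25 and 0 below -0.3. The table the genes come from is itself a selection by a rule that is not given in the sources used here, and genes outside it have no recovery difference here. The absence of strongly negative genes is therefore not read as a finding, nor is a larger number of positive than of negative genes. Medians of gene lists describe listed members only.

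**Figure D2:**
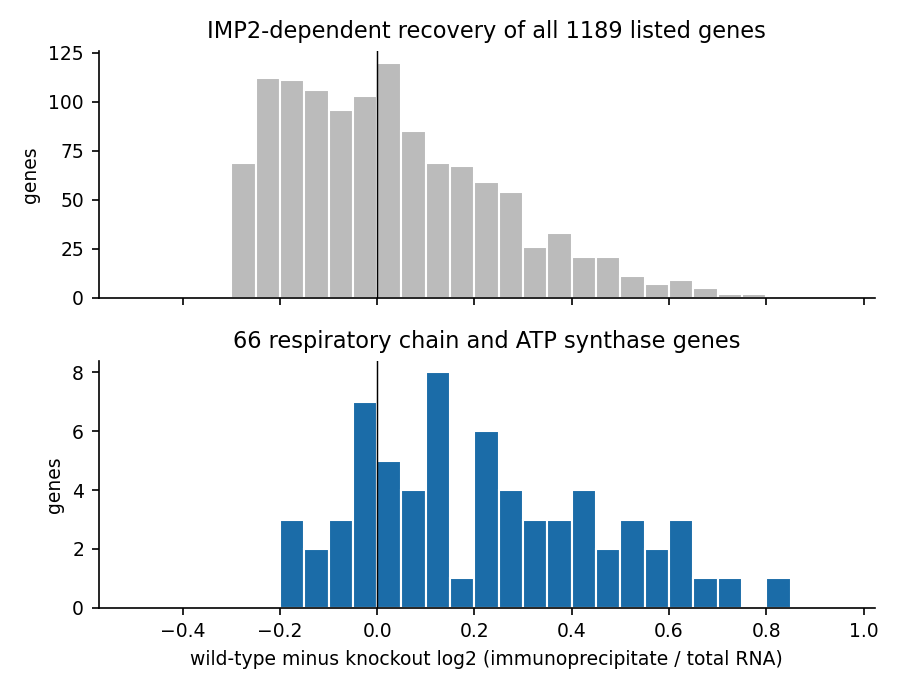
Histograms of the recovery difference (x axis, log2; bins of 0.05) for all listed genes above and for 66 respiratory chain and ATP synthase genes below, with gene counts on the y axes. The upper histogram ends abruptly at log2 -0.30, and the lower one has its median at log2 0.20.

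From 2 immunoprecipitates and 2 total RNA libraries, 4 ratios can be formed in each genotype. In 98 genes (8.24%) all 4 wild-type ratios were above all 4 knockout ratios, and in 57 genes (4.79%) all were below. Of the 29 genes with the smallest p-values 28 had ratios that did not overlap. Both the p-values and the ratios come from the same 8 libraries, so this follows largely from the selection. With scaling by summed counts alone the shares were 5.21% above and 8.66% below, so that the larger side turned. With the matched libraries, which leave 2 ratios per genotype, they were 24.4% above and 23.2% below.

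The gene with the smallest p-value was H2afj, which encodes a variant of histone H2A and is called H2aj in RefSeq (GRCm38.p6 chromosome 6, 136808248 to 136810074). Its level was 316 and 277.8 CPM in wild-type total RNA, 171.1 and 162 in wild-type immunoprecipitates, 260.1 and 269.6 in knockout total RNA, and 75.5 and 96.61 in knockout immunoprecipitates. Both immunoprecipitates held less of it than total RNA did, and the knockout immunoprecipitates held the least. No pair of these 4 groups overlapped, though the total RNA of both genotypes was close. The recovery difference was log2 0.79 ± 0.21 (SE, n = 2 per group, edgeR unadjusted p = 0.00453, adjusted p = 0.999). Other histone genes did not share this value: of the 4 listed, H2afj included, 2 were above 0, and the median of the 4 was log2 0.00.

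Hint2, a mitochondrial enzyme of the histidine triad family that hydrolyses nucleotide conjugates (chromosome 4, 43654227 to 43656445), had a different course. Its level was 829.3 and 869.3 CPM in wild-type total RNA and 811.6 and 670.6 in knockout total RNA. The immunoprecipitates held 1300 and 1897 CPM in the wild type and 806.4 and 823.4 in the knockout. The wild-type immunoprecipitates were above all other libraries. Recovery was log2 0.91 in the wild type and 0.14 in the knockout, a difference of log2 0.77 ± 0.25 (SE, unadjusted p = 0.0134 by edgeR). Its relative Hint1, the cytosolic member of the family, was also among the 20 genes named for the smallest p-values, at log2 0.36 ± 0.13. Hint1 and Hint2 were the only listed members of the 6 in the list, which was drawn up with the value of Hint2 known.

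The 29 genes at an unadjusted p under 0.05 by edgeR (2.44% of 1189) included 1 of the 45 listed mitochondrial ribosomal proteins. They also included 7 of the 66 listed respiratory chain and ATP synthase genes. Mrpl54, a protein of the large subunit of the mitochondrial ribosome (chromosome 10, 81264722 to 81266926), had 516.4 and 458.4 CPM in wild-type and 569.8 and 481.6 in knockout total RNA. The immunoprecipitates had 402.4 and 417.8 in the wild type and 284.2 and 283.8 in the knockout. The wild-type and knockout immunoprecipitates did not overlap while the total RNA groups did, and the difference was log2 0.64 ± 0.20. Atp5o, a subunit in the stalk of the ATP synthase (chromosome 16, 91925223 to 91931630), had 1749 and 1627 CPM in wild-type and 2035 and 1883 in knockout total RNA. It had 1198 and 1365 in the wild-type and 1029 and 1014 in the knockout immunoprecipitates. The wild type was thus lower in total RNA and higher in the immunoprecipitate, and the difference was log2 0.54 ± 0.15.

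Ndufb2, an accessory subunit of complex I (chromosome 6, 39592565 to 39599843), had 790.1 and 607.4 CPM in wild-type total RNA and 845.8 and 830.4 in the immunoprecipitates. In the knockout it had 782.1 and 864.1 CPM in total RNA and 615.9 and 667.2 in the immunoprecipitates. Every immunoprecipitate of the wild type was above every total RNA library of that genotype, and the reverse held in the knockout, with a difference of log2 0.62 ± 0.20. Uqcr11, a small subunit of complex III (chromosome 10, 80402997 to 80406821), showed the same order, with 4446 and 4198 CPM in total RNA and 4977 and 5134 in immunoprecipitates of the wild type. It had 6045 and 4664 CPM in total RNA and 4184 and 3829 in immunoprecipitates of the knockout, a difference of log2 0.64 ± 0.22. A ratio of 0 stands for average recovery among the listed genes after scaling and not for equal amounts, so a sign depends on the scaling. Ratios above 0 in every wild-type and below 0 in every knockout combination occurred in 8 genes (0.673%), among them also the copper chaperone Cox17 (log2 0.39 ± 0.16) and the mitochondrial fission protein Fis1 (log2 0.35 ± 0.17).

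**Figure D3:**
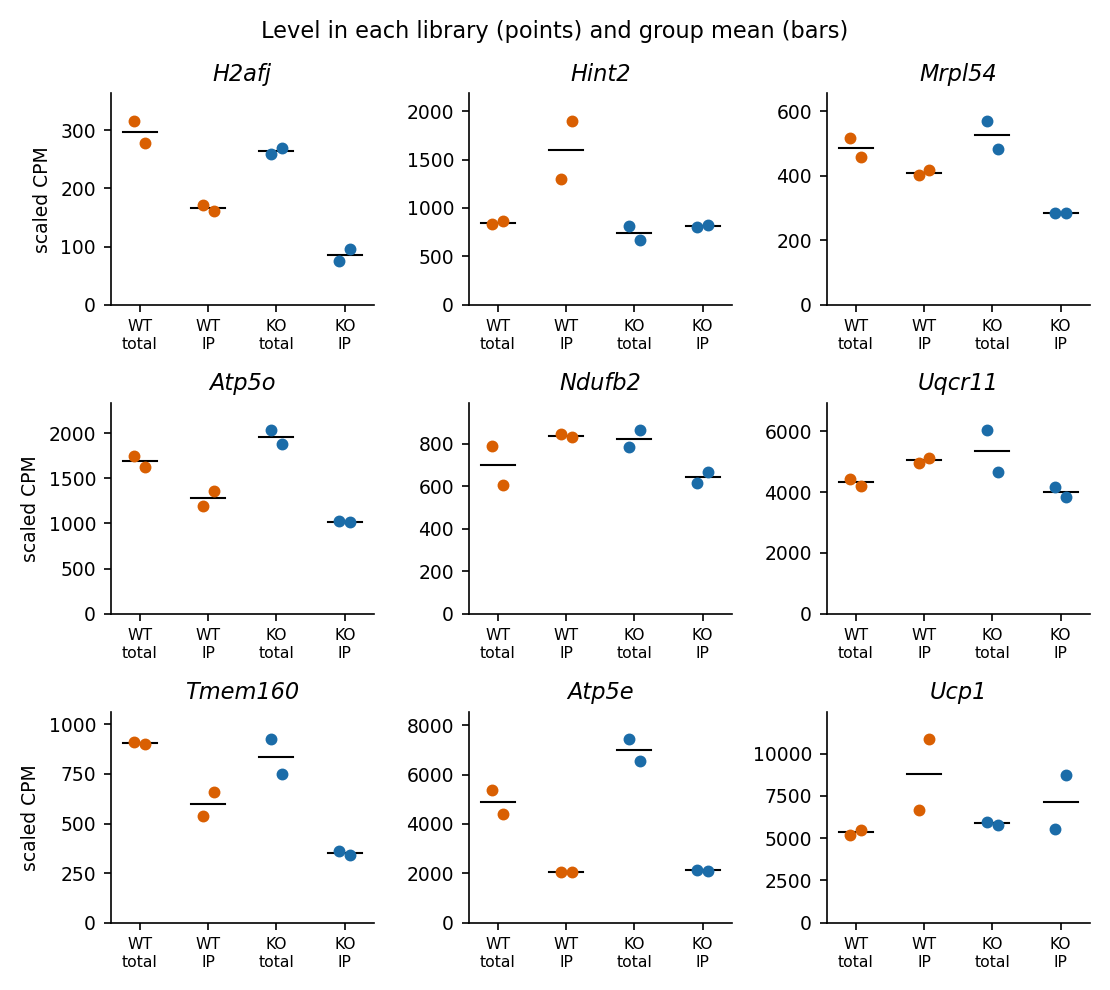
Scaled CPM (y axes, from 0) of 9 genes in wild-type (WT, orange) and knockout (KO, blue) total RNA and immunoprecipitates (IP); points are libraries and bars are means (n = 2). Hint2 is highest in the wild-type immunoprecipitates, Ndufb2 and Uqcr11 change order between genotypes, and Atp5e has like levels in all 4 immunoprecipitates.

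The other genes named for the smallest p-values had differences of log2 0.43 to 0.70. They include Tmem160, a mitochondrial protein (log2 0.65 ± 0.21), Exosc5, a subunit of the RNA exosome (0.60 ± 0.20), Cops6, a subunit of the COP9 signalosome (0.66 ± 0.23), and Tceb2, elongin B (0.69 ± 0.26). They also include Gngt2 (0.64 ± 0.22), H2-Ke2, a prefoldin subunit (0.64 ± 0.22), the galectin Lgals1 (0.55 ± 0.21), the proton pump subunit Atp6v1g1 (0.50 ± 0.19) and the complex I subunit Ndufa5 (0.70 ± 0.28). Ptov1 (0.52 ± 0.20), the tyrosine breakdown enzyme Fah (0.51 ± 0.20) and Abhd11 (0.43 ± 0.16) complete them. All 20 were positive under each of the 20 alternative settings. They were picked for positive values in the same libraries, so this is not separate evidence. The other filters, library sizes and prior count also left the number of positive genes at an unadjusted p under 0.05 at 29 (edgeR).

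A positive difference did not always go with a ratio above 0 in the wild type. Of the 29 genes at an unadjusted p under 0.05, 14 had a ratio below 0 in the wild type, and 24 in the knockout. H2afj stood at log2 -0.83 in the wild type and -1.63 in the knockout, Tmem160 at -0.60 and -1.25, and Cops6 at -0.48 and -1.14. Values below 0 mean less recovery than the average listed gene, and the values of these genes were lower still in the knockout.

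The difference can be split into the immunoprecipitates and total RNA. Among the 29 genes 28 were higher in the wild-type than in the knockout immunoprecipitates, and 17 were lower in wild-type than in knockout total RNA. Of all 1189 genes, 615 were higher in the wild-type immunoprecipitates and 598 lower in wild-type total RNA. The 29 were picked for a positive difference, so these signs follow in part from the selection. The immunoprecipitates gave the larger share in 24 of the 29, as in Hint2 with log2 0.97 between immunoprecipitates and 0.20 between total RNA, or Exosc5 with 0.64 and 0.04. Lgals1 was an exception, at log2 0.05 between immunoprecipitates and -0.50 between total RNA. Atp5e, the epsilon subunit of the ATP synthase and named here after its values were seen, was another. Its level was 5362 and 4399 CPM in wild-type and 7440 and 6550 in knockout total RNA, against 2050 and 2036 in wild-type and 2147 and 2089 in knockout immunoprecipitates. Its recovery difference of log2 0.47 ± 0.20 came from total RNA, with log2 -0.05 between the immunoprecipitates.

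Subunits of the respiratory chain and ATP synthase lay mostly on the positive side. Of 84 genes in the lists 66 were listed, and 0 passed the threshold. Their median was log2 0.20, against 0.00 for all genes, and 51 were above 0. Values above log2 0.5 occurred in 11 of the 66 (16.7%) and in 37 of all genes (3.11%), and all 4 wild-type ratios exceeded all knockout ratios in 19 (28.8%, against 8.24% of all genes). They were all below in 1 (1.52%, against 4.79% of all genes). The list median was log2 0.13 when the wild-type libraries of the other table were added, log2 0.13 with scaling by summed counts alone, where the median of all genes was -0.07, and 0.13 without knockout immunoprecipitate 23. The members were chosen knowing that these genes stood high, so their counts are not independent evidence.

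By complex, the 7 listed subunits of complex III, which passes electrons to cytochrome c, had a median of log2 0.48, with Uqcr11 and the core subunit Uqcrc1 (log2 0.56 ± 0.27) highest. Complex I, the entry point for electrons from NADH, had a median of log2 0.21 over the 33 listed members of its list, of which 26 were above 0. Ndufb7 (log2 0.70 ± 0.31) and Ndufa5 had its largest values, and Ndufa6 (log2 -0.15 ± 0.21) its smallest. The 11 listed ATP synthase subunits had a median of log2 0.15 and were widely spread. Atp5k, a small membrane subunit, had the largest value of all genes at log2 0.81 ± 0.35, while Atp5a1 and Atp5c1 were at log2 -0.12 ± 0.25 and -0.09 ± 0.19. Complex IV and cytochrome c had a median of log2 0.12 over 13 genes, from Cox6b1 (log2 0.43 ± 0.28) and Cox4i1 (0.36 ± 0.25) to Cox8a (-0.16 ± 0.18). Complex II, which oxidises succinate, had 2 listed subunits with a median of log2 -0.07. Its flavoprotein Sdha, named here after its values were seen, was the lowest of the 66 at log2 -0.18 ± 0.17 and the gene whose wild-type ratios were all below the knockout ratios. Sdha had 3447 and 3395 CPM in wild-type and 3030 and 3187 in knockout total RNA, and 4448 and 4009 in wild-type and 4203 and 4509 in knockout immunoprecipitates. The 10 listed assembly factors, which are not subunits, had a median of log2 -0.03, with 4 above 0. No adjusted p among these genes was below 0.999 with edgeR, and differences between complexes were not tested.

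In these 66 genes both parts of the difference contributed. The median was log2 0.10 between wild-type and knockout immunoprecipitates and log2 -0.09 between wild-type and knockout total RNA. The wild-type immunoprecipitate was higher in 44 genes, against 615 of all 1189 genes. Wild-type total RNA was lower in 44 of the 66, compared with 50.3% of all genes. Their median ratio to total RNA was log2 -0.16 in the wild type, with 45 of 66 below 0, and -0.38 in the knockout, with 53 below 0. The medians of all listed genes were log2 0.01 and -0.01.

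**Figure D4:**
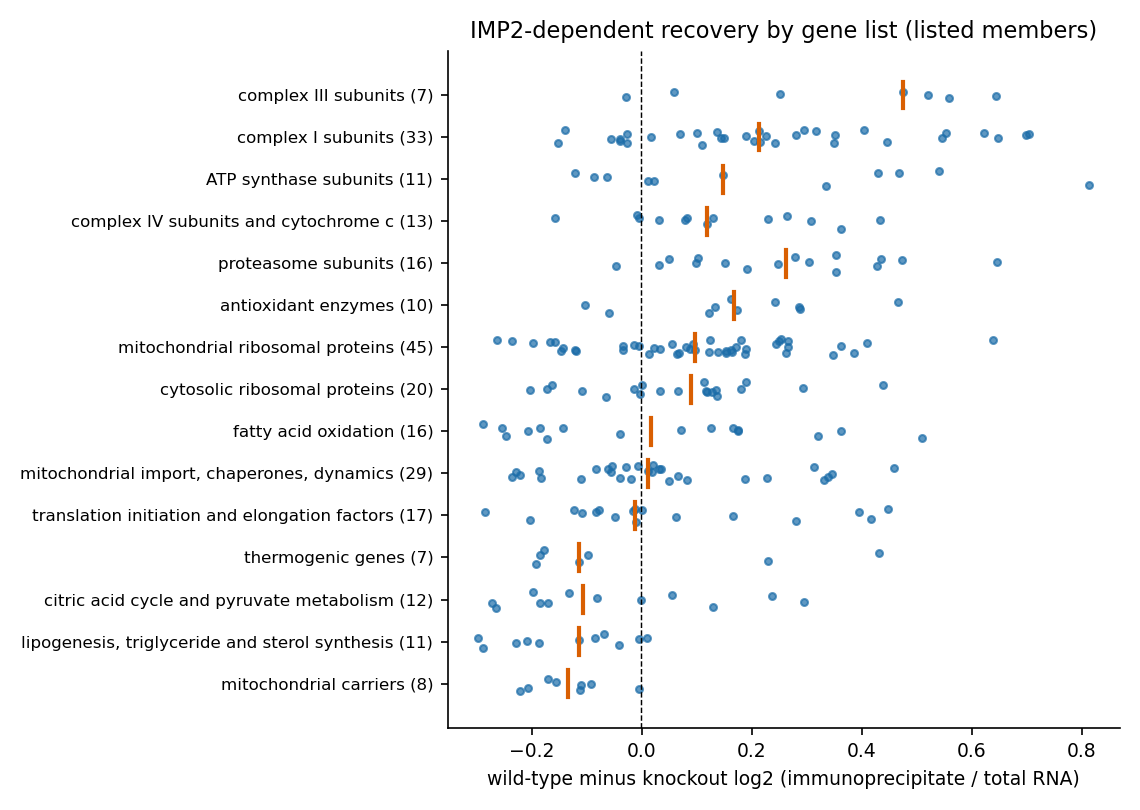
Recovery difference (x axis, log2) of the listed members of 15 gene lists, with the number of members in parentheses; points are genes, orange bars list medians and the dashed line the median of all genes. Medians run from log2 0.48 for complex III to log2 -0.13 for the mitochondrial carriers, and members of most lists spread across 0.

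Several other lists can be read beside them. The proteasome, which degrades tagged proteins, had 15 of 16 listed subunits above 0 and a median of log2 0.26, with Psmb3 (log2 0.65 ± 0.36) and Psmb6 (0.47 ± 0.24) highest. All 4 wild-type ratios exceeded the knockout ratios in 3 of the 16, against 8.24% of all genes. Antioxidant enzymes had a median of log2 0.17 over 10 genes, with the mitochondrial thioredoxin reductase Txnrd2 at 0.47 ± 0.23 and the glutathione peroxidase Gpx1 at 0.29 ± 0.17. Mitochondrial ribosomal proteins had a median of log2 0.10 with 32 of 45 above 0, from Mrpl54 and Mrps16 (0.41 ± 0.29) down to Mrpl49 (-0.26 ± 0.20). The 20 cytosolic ribosomal proteins had a median of log2 0.09, with Rplp1 at 0.44 ± 0.23 and Rpl14 at 0.29 ± 0.18. Their recovery was below average in both genotypes, with medians of log2 -1.26 in the wild type and -1.29 in the knockout. The 17 translation factors had a median of log2 -0.01.

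Other mitochondrial groups had medians around or below 0. The 29 import, chaperone, protease and dynamics genes had a median of log2 0.01, with Timm13, a chaperone between the membranes, at 0.46 ± 0.27 and the import channel subunit Timm17a and the fusion protein Opa1 at -0.24 ± 0.25 and -0.23 ± 0.18. Fatty acid oxidation had a median of log2 0.02 over 16 genes, from Etfb, an electron carrier (0.51 ± 0.33), and Decr1 (0.36 ± 0.19) to Etfdh (-0.25 ± 0.19) and Acot13 (-0.29 ± 0.18). Enzymes of the citric acid cycle and of pyruvate use had a median of log2 -0.11 over 12 genes, from the fumarase Fh1 (0.30 ± 0.25) and Idh3g (0.24 ± 0.16) to the citrate synthase Cs (-0.27 ± 0.18) and Pdhb (-0.26 ± 0.28). Fh1 was at log2 -0.15 once the wild-type libraries of the other table were added. All 8 mitochondrial carriers were below 0 (median log2 -0.13), with Slc25a35 at -0.22 ± 0.24 and the ADP and ATP carrier Slc25a4 at -0.21 ± 0.18.

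On the negative side the smallest p-value belonged to Agpat6, which starts glycerolipid synthesis and is called Gpat4 in RefSeq (chromosome 8, 23171265 to 23208453). Its level was 1719 and 1751 CPM in wild-type and 1711 and 1745 in knockout total RNA. The immunoprecipitates held 1925 and 1917 in the wild type and 2253 and 2419 in the knockout. Total RNA was level between genotypes and the knockout immunoprecipitates were higher, with a difference of log2 -0.29 ± 0.14 (SE, n = 2 per group, edgeR unadjusted p = 0.0683, adjusted p = 0.999). Acat2, which makes acetoacetyl-CoA in the cytosol, followed at -0.30 ± 0.15. Plbd2 (-0.28 ± 0.17), Acot13, the complex II assembly factor Sdhaf1 (-0.29 ± 0.18), Suds3 (-0.28 ± 0.17), D17Wsu92e (-0.22 ± 0.14) and the transglutaminase Tgm2 (-0.29 ± 0.18) had the next smallest p-values. Of these 8, all but D17Wsu92e were below log2 -0.25, near the lower end of the listed values. Lipogenesis and sterol synthesis, with Agpat6 and Acat2 among its members, had 10 of 11 listed genes below 0 and a median of log2 -0.11.

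Ucp1 had 5194 and 5489 CPM in wild-type and 5979 and 5758 in knockout total RNA. Its immunoprecipitates held 6693 and 10860 CPM in the wild type and 5559 and 8734 in the knockout, so that immunoprecipitates of 1 genotype differed widely and those of the 2 genotypes overlapped. Total RNA did not overlap and was lower in the wild type. The recovery difference was log2 0.43 ± 0.38 (SE, n = 2 per group, edgeR unadjusted p = 0.287, adjusted p = 0.999). It was log2 0.04 without wild-type immunoprecipitate 22, 0.10 without knockout immunoprecipitate 23, 0.72 without wild-type immunoprecipitate 21, 0.78 without knockout immunoprecipitate 24, and 0.17 with the wild-type libraries of the other table. Among the 7 listed thermogenic genes the median was log2 -0.11, with Cox8b at 0.23 ± 0.24 and Pank1 at -0.18 ± 0.20.

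A separate pair of wild-type libraries, 1 IMP2 immunoprecipitate and 1 made with nonspecific IgG, measures background in another way. Neither library is among the 8 from which the recovery difference was computed, though the immunoprecipitate is among those added in the alternative with the other table. With 1 library of each kind there is no test, and intervals cover counting error only. H2afj was 2.06-fold higher with IMP2 than with IgG (95% interval 1.72 to 2.46), Tmem160 2.03-fold (1.84 to 2.23), Hint2 1.93-fold (1.80 to 2.07) and Ndufb2 1.94-fold (1.79 to 2.09). Uqcr11 was at 1.83-fold (1.76 to 1.90) and Mrpl54 at 1.69-fold (1.49 to 1.92). Atp5o was lower in this order, at 1.24-fold (1.17 to 1.32), as were Abhd11 at 1.08-fold (0.935 to 1.24) and Fah at 1.10-fold (0.955 to 1.25). Ucp1 was at 1.08-fold (1.05 to 1.11).

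Of the 29 genes with the smallest p-values 22 were above the median of all listed genes in IMP2 over IgG (594 of 1189 genes are above it, as a median implies). Their own median was log2 0.62, against 0.32 for all listed genes. Sorted by the recovery difference into 4 bins of 297 or 298 genes, they had medians of log2 0.21, 0.27, 0.34 and 0.45 in IMP2 over IgG from the lowest to the highest bin. Spearman's rho between these measures was 0.252 and Pearson's r 0.263 across 1189 genes. Genes do not count as independent replicates here. The respiratory chain and ATP synthase genes had a median of log2 0.44, with 44 of 66 above the median of all listed genes. Plbd2, on the negative side of the recovery difference, was 2.01-fold higher with IMP2 than with IgG (1.59 to 2.52). It was the highest of the 8 negative genes named, and the others ran from 0.90-fold (Sdhaf1) to 1.24-fold (Suds3).

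**Figure D5:**
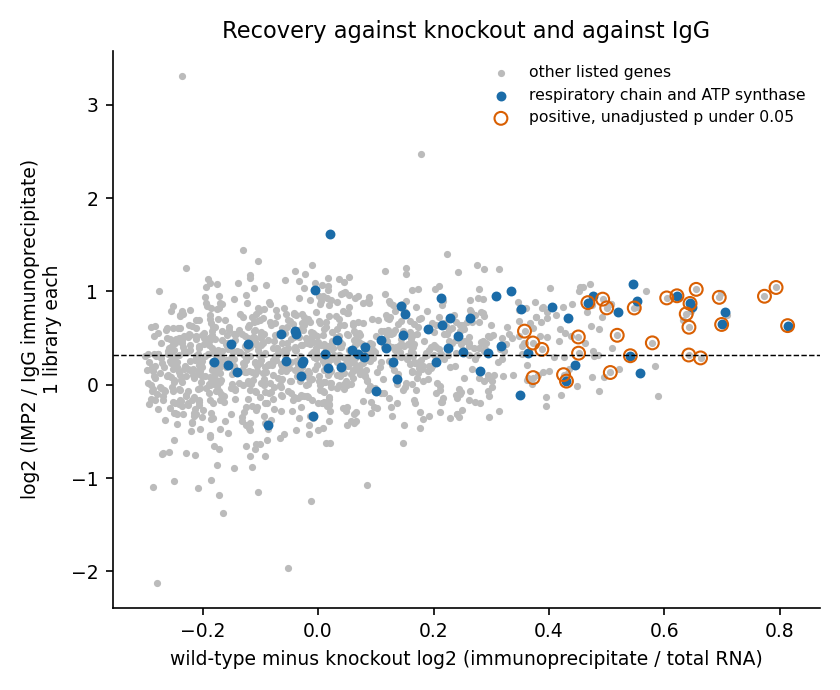
Recovery difference between genotypes (x axis, log2) against the ratio of IMP2 to IgG immunoprecipitate (y axis, log2; 1 library each) for the 1189 genes, with the dashed line at the median of log2 0.32. The circled genes, the 29 with the smallest p-values, lie mostly above the line, in a cloud that is wide at every value of x.

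Which genes were listed also differed between groups. The other table had 1379 genes with at least 100 CPM in total RNA, of which 915 were listed (66.4%). The share was 65 of 72 for the respiratory chain and ATP synthase (90.3%), 32 of 33 for complex I, 13 of 13 for the proteasome and 38 of 40 for mitochondrial ribosomal proteins. It was 12 of 20 for the citric acid cycle and pyruvate list (60.0%), 14 of 22 for fatty acid oxidation (63.6%), 10 of 20 for lipogenesis, 6 of 11 for mitochondrial carriers (54.5%) 10 of 15 for antioxidant enzymes (66.7%) and 9 of 21 for skeletal muscle markers (42.9%). The recovery difference of the members not listed was not analysed here.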

How the data were processed

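RNA immunoprecipitates and total RNA of brown fat were sequenced. The authors deposited whole-number read counts per RefSeq transcript. The submitters' processing notes name TopHat2 2.0.8, Cufflinks 2.1.1 and mm10 without their roles, with no counting tool or listing rule given in the sources used here. Of 1579 transcripts 117 had no symbol, and 114 were named by accession from RefSeq for GRCm38.p6, the assembly also called mm10. The 3 others, 8.65 to 29.2% of counts per library, were left out. The 29.2% was in wild-type total RNA 17, against 12.4% in wild-type total RNA 16 and at most 17.6% in any other of the 8 libraries.

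Counts were tested after TMM scaling with edgeR 4.0.16 in R 4.3.3 (quasi-likelihood, 4 residual degrees of freedom, Benjamini-Hochberg adjustment over 1189 genes, threshold 0.05). The edgeR filter on low counts removed 0 genes. Single-library ratios used log2 CPM with a prior count of 2. The ratios of IMP2 to IgG used the same transcripts in the deposited table of 12840 transcripts, with exact 95% counting intervals. Methods were tested on simulated data.

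Named genes are Ucp1, the 20 positive and 8 negative genes with the smallest p-values, and up to 2 members at each end of a list, without predicted genes and the 8 genes with identical counts. Only some of the list members so picked are described, and these were chosen with values known. Members and lists were chosen with earlier results of these data known. Alternatives were other scalings, filters, transcripts, library sizes and prior counts, DESeq2 1.42.0, limma-voom (limma 3.58.1), added libraries and leaving out each library. The planned use of protein lengths was not made.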

Additional observations from a re-analysis of the deposited data

How the results depend on the processing

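No setting called any gene, whereas the number of positive genes at an unadjusted p under 0.05 ran from 7 to 52 when 1 library was left out (7 without knockout total RNA 18, 52 without wild-type immunoprecipitate 21) and was 14 with scaling by summed counts, 19 with the wild-type libraries of the other table and 29 in the model as reported. Of 92 genes picked by the naming rule or added, 26 changed sign under 1 or more of the 20 alternatives. Of the 63 whose values are given in the text 2 did, and of the 29 others 24 did, so the list members given are the steadier ones. Fh1 turned to log2 -0.15 with the added libraries, and Atp5a1 to 0.029 without wild-type immunoprecipitate 22 (range -0.31 to 0.029 when 1 library was left out). The respiratory chain and ATP synthase median was log2 0.13 with scaling by summed counts (0.1289) and 0.13 with the added libraries (0.1275), and 0.13 to 0.21 when 1 library was left out, which stayed above the median of all genes (0.20 and 0.16 above it under the first 2 settings).

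The share of genes whose ratios did not overlap, 8.24% above and 4.79% below, became 5.21% above and 8.66% below with scaling by summed counts, and 5.46% below over every listed transcript. Leaving out 1 library, which leaves fewer ratios to compare, gave 12.45 to 20.4% above and 10.8 to 17.8% below, and without knockout immunoprecipitate 23 the larger side turned (13.9% above, 14.2% below). This share was not computed with the libraries of the other table added.

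The labels pair no immunoprecipitate with a total RNA library. A match chosen after seeing the data, by the order of the sample numbers and by deviations shared in the counts (Pearson r across genes 0.716 in the wild type and 0.802 in the knockout), left 2 residual degrees of freedom and called 0 genes, with a smallest adjusted p of 0.125. At an unadjusted p under 0.05 it had 125 positive genes (10.5%) and 11 negative (0.925%), and the matched ratios did not overlap in 24.4% of genes above and 23.2% below.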
